A study of Mus musculus with 6 samples.

Results

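Potassium channel genes were followed as the 71 rows of the gene tables whose symbol begins with Kcn, of 15639 rows in all. Of the 73 Kcn rows, Kcne2 and Kcnj13 were left out because they mark the choroid plexus, and no Kcn symbol stood on more than 1 row. By family name, 33 members encode voltage-gated pore subunits, 9 their auxiliary subunits, 11 inward rectifiers, 9 two-pore channels, 4 calcium-activated pores, 2 auxiliary subunits of calcium-activated channels, and 3 the sodium-activated channels and their Slo relative. Total RNA had been sequenced from the hippocampus of mice aged 6 months, with 3 libraries labelled APP/PS1, which carry the APP695swe and PS1-dE9 mutations, and 3 libraries labelled wild type (WT). The labels name no sex, strain, litter or batch and no promoter for the transgenes. Nor do they tie a replicate to an animal of its own, and p-values here cover the spread from library to library, part of which may be technical.

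Potassium channels let potassium leave or enter the cell along its gradient. Voltage-gated channels open on depolarisation and shape the action potential, its repolarisation and the firing rate, and their auxiliary subunits set how fast they inactivate and where they sit. Inward rectifiers and two-pore channels hold the resting potential in neurons and let glia take up potassium, and calcium-activated channels link firing to the afterhyperpolarisation that follows a spike. The hippocampus is known for strong A-type and M-type currents in its pyramidal neurons and for G protein-gated inward rectifiers in their dendrites.

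The labels were checked first. Levels are in FPKM, fragments scaled by transcript length and library size, and are given in the order of replicates 1, 2 and 3. App, the gene of the transgene, had 153.1, 71.01 and 166.2 FPKM under the APP/PS1 label and 69.8, 68.5 and 145.6 FPKM under the WT label. Prnp, the prion protein gene, had 471.6, 198.6 and 463.8 FPKM under the APP/PS1 label and 188.1, 181.5 and 457.2 FPKM under the WT label. The libraries labelled APP/PS1 replicate 2 and WT replicate 3 thus go against their labels by both genes, and a fit to the other 4 libraries is given beside the members with the smallest p. The column sums ran from 182355 to 185217 FPKM, and the number of reads behind a gene's value is unknown. The defining markers of the hippocampus were all present. Prox1 of dentate granule neurons lay between 12.7 and 19.98 FPKM, and the 10 pyramidal neuron markers summed to between 186.4 and 208.3 FPKM. The dentate marker Tdo2 was low, between 0.40 and 1.11 FPKM, and single pyramidal markers moved more than their sum. Wfs1 had 43.7 FPKM in WT replicate 1 and 21.7 FPKM in WT replicate 3, and Mpped1 had 15.5 and 31.9 FPKM there. Markers of neighbouring tissue were present too, at uneven levels. The 10 choroid plexus markers summed to between 983.9 and 1577 FPKM, and the 8 listed thalamus markers to between 27.4 and 44.7 FPKM.

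Levels spanned a wide range within every class, and FPKM is a per-length measure, so genes can be set side by side. Averaged over the 6 libraries, 13 members stood at or above 20 FPKM, 26 at or above 10 FPKM and 6 under 1 FPKM, and the median member was at 6.85 FPKM, against 4.45 FPKM for all rows. The highest member was not a pore: Kcnab2, a cytosolic beta subunit that binds the voltage-gated channels of the Kcna family, averaged 77.7 FPKM and lay above 98.5% of all rows. It was listed at 77.3, 78.4 and 77.5 FPKM in APP/PS1-labelled libraries and at 80.7, 78.2 and 74.005 FPKM in WT-labelled libraries, and the labels overlapped.

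**Figure D1:**
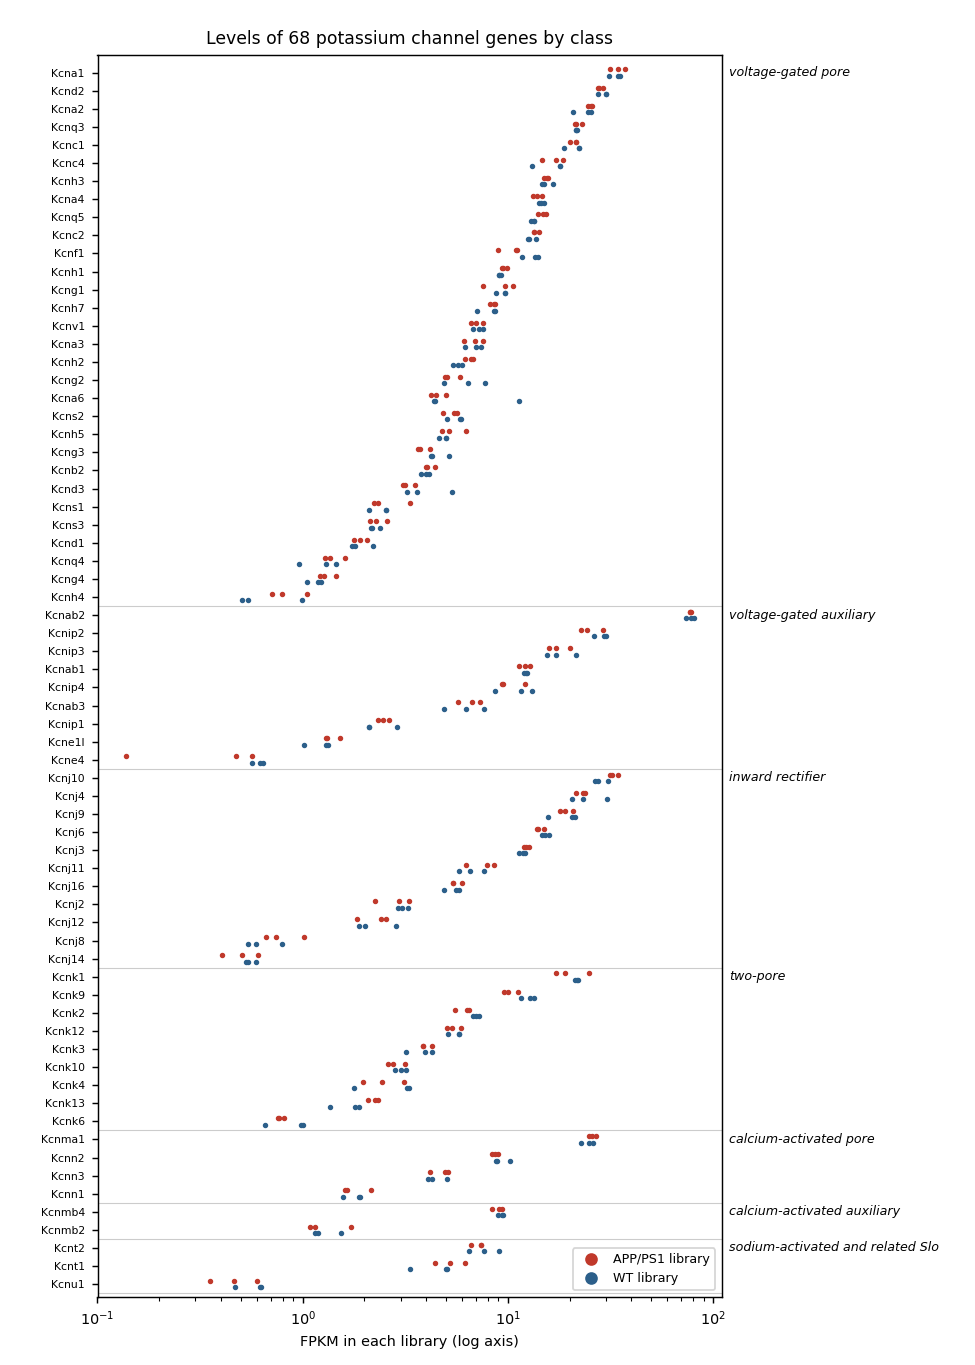
FPKM of 68 members in each library on a log axis, by class and by falling mean level, with APP/PS1-labelled libraries in red above WT-labelled libraries in blue. Kcnab2 lies farthest right, and Kcna6 has 1 WT-labelled library, at 11.4 FPKM, far from the others.

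Among voltage-gated pores the axonal channel gene Kcna1 led with 34.5, 31.5 and 37.1 FPKM in APP/PS1-labelled libraries and 35.3, 34.4 and 31.0 FPKM in WT-labelled libraries. Kcnd2, a pore of the A-type current in dendrites, averaged 28.7 FPKM, and Kcna2, which assembles with Kcna1, 24.4 FPKM. Kcnq3, of the M-type current, averaged 21.7 FPKM, and Kcnc1, of the fast-deactivating channels of fast-spiking neurons, 21.1 FPKM. The 9 so-called silent subunits of the Kcnf, Kcng, Kcns and Kcnv families, which form no channel alone and modify other voltage-gated channels, summed to 49.7 FPKM. At the low end of the class were Kcng4 at 1.24 FPKM and Kcnh4 at 0.767 FPKM.

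Auxiliary subunits of voltage-gated channels were led, after Kcnab2, by genes for the calcium-binding partners of Kcnd channels, Kcnip2 at 27.0 FPKM and Kcnip3 at 17.9 FPKM. Kcnip3 is also known as calsenilin, a binding partner of presenilins, and was listed at 15.8, 17.1 and 20.03 FPKM in APP/PS1-labelled libraries and at 17.1, 21.5 and 15.6 FPKM in WT-labelled libraries. Kcne4 was the lowest member of all at 0.5002 FPKM. Among inward rectifiers Kcnj10, the potassium uptake channel of astrocytes and oligodendrocytes, stood at 30.5 FPKM, ahead of Kcnj4, a strong rectifier of neurons, at 23.8 FPKM. The G protein-gated subunit genes Kcnj9, Kcnj6 and Kcnj3 followed at 19.2, 14.8 and 12.04 FPKM. Kcnj11, the pore of the ATP-sensitive channel in neurons, was at 7.13 FPKM, while its vascular counterpart Kcnj8 was at 0.726 FPKM.

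Two-pore channel genes were led by Kcnk1, a weak inward rectifier, at 21.0 FPKM, followed by the acid-sensitive Kcnk9 at 11.4 FPKM and the mechanically gated Kcnk2 at 6.55 FPKM. Of the calcium-activated pores Kcnma1, the large-conductance channel, stood at 25.2 FPKM, well above the small-conductance genes Kcnn2 at 8.97, Kcnn3 at 4.599 and Kcnn1 at 1.79 FPKM. Kcnmb4, the neuronal beta subunit of Kcnma1, was at 9.09 FPKM and Kcnmb2, an inactivating beta subunit, at 1.31 FPKM. The sodium-activated channel genes Kcnt2 and Kcnt1 were at 7.43 and 4.87 FPKM, and Kcnu1, known from sperm, at 0.521 FPKM.

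Classes were then compared by label. The summed FPKM of all members was 760.8, 750.4 and 760.6 in the APP/PS1-labelled libraries and 793.8, 769.0 and 738.3 in the WT-labelled libraries. The APP/PS1-labelled sums all lay within the WT-labelled range. Voltage-gated pores summed to 363.6 ± 4.37 FPKM in APP/PS1-labelled and 368.8 ± 13.4 FPKM in WT-labelled libraries (SD, n = 3 each), and held between 47.7% and 48.4% of the potassium channel total in every library. Their auxiliary subunits summed to 154.1 ± 5.58 FPKM in APP/PS1-labelled and 158.1 ± 3.08 FPKM in WT-labelled libraries. Inward rectifiers summed to 120.9 ± 4.01 FPKM in APP/PS1-labelled and 117.8 ± 9.16 FPKM in WT-labelled libraries, a share between 14.8% and 16.3% of the total. Calcium-activated pores summed to 41.0 ± 0.434 FPKM in APP/PS1-labelled and 40.2 ± 1.75 FPKM in WT-labelled libraries.

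Two-pore channels stood farthest from equality, with a ratio of label means of 0.925. They summed to 59.4, 51.8 and 52.5 FPKM in APP/PS1-labelled libraries and to 59.8, 60.5 and 56.6 FPKM in WT-labelled libraries, so APP/PS1 replicate 1 lay inside the WT-labelled range. In the other classes the ratio of APP/PS1-labelled to WT-labelled means ran from 0.973 for auxiliary subunits of calcium-activated channels to 1.03 for inward rectifiers. In all 7 classes the sums of the labels overlapped, and these sums were not tested. In the 4 libraries without WT replicate 3 and APP/PS1 replicate 2 the ratios ran from 0.929 for two-pore channels to 1.05 for sodium-activated channels and their relative. The order of the 5 largest classes, voltage-gated pores, their auxiliary subunits, inward rectifiers, two-pore channels and calcium-activated pores, was the same in every library.

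**Figure D2:**
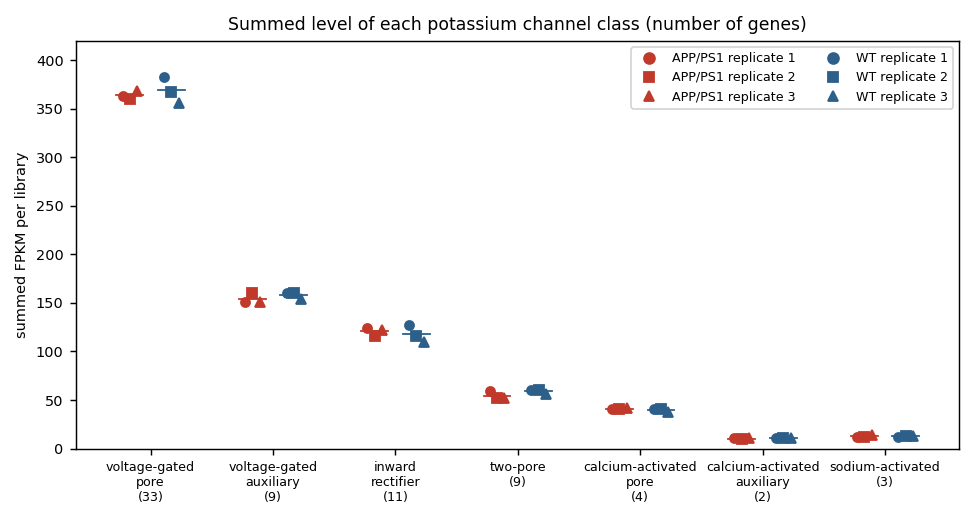
Summed FPKM of each class in each library, with the number of genes in brackets. Symbols are replicates, red for APP/PS1 and blue for WT labels, and lines are label means. The voltage-gated pores stand near 366 FPKM, and the labels overlap in every class.

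Single members were tested with limma on log2(FPKM + 1), with Benjamini-Hochberg adjustment over 13700 genes, and fold changes are on that scale, which understates the change of low genes. Of the 71 members, 65 had at least 1 FPKM in at least 3 libraries and were tested. Kcnh4, Kcne4, Kcnj8, Kcnj14, Kcnk6 and Kcnu1 were not. By limma 0 of the 65 passed an adjusted p of 0.05 in either direction, where 0.0219% of all genes did, 0.0073% higher and 0.0146% lower, and the smallest adjusted p was 0.615. An unadjusted p under 0.05 was reached by 7 members, 4 higher and 3 lower in APP/PS1-labelled libraries, or 10.8% of those tested, where 6.69% of all genes did. By direction the background was 2.85% for higher and 3.83% for lower genes. The median log2 fold change of the 65 was 0.0042, and that of all genes tested was -0.00089. A total of 59 members had a 95% interval that lay within 0.5 log2 units of 0 on both sides, and 0 members had a log2 fold change of 0.5 or more in size. In bulk tissue, fewer cells of a type and less RNA per cell cannot be told apart.

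**Figure D3:**
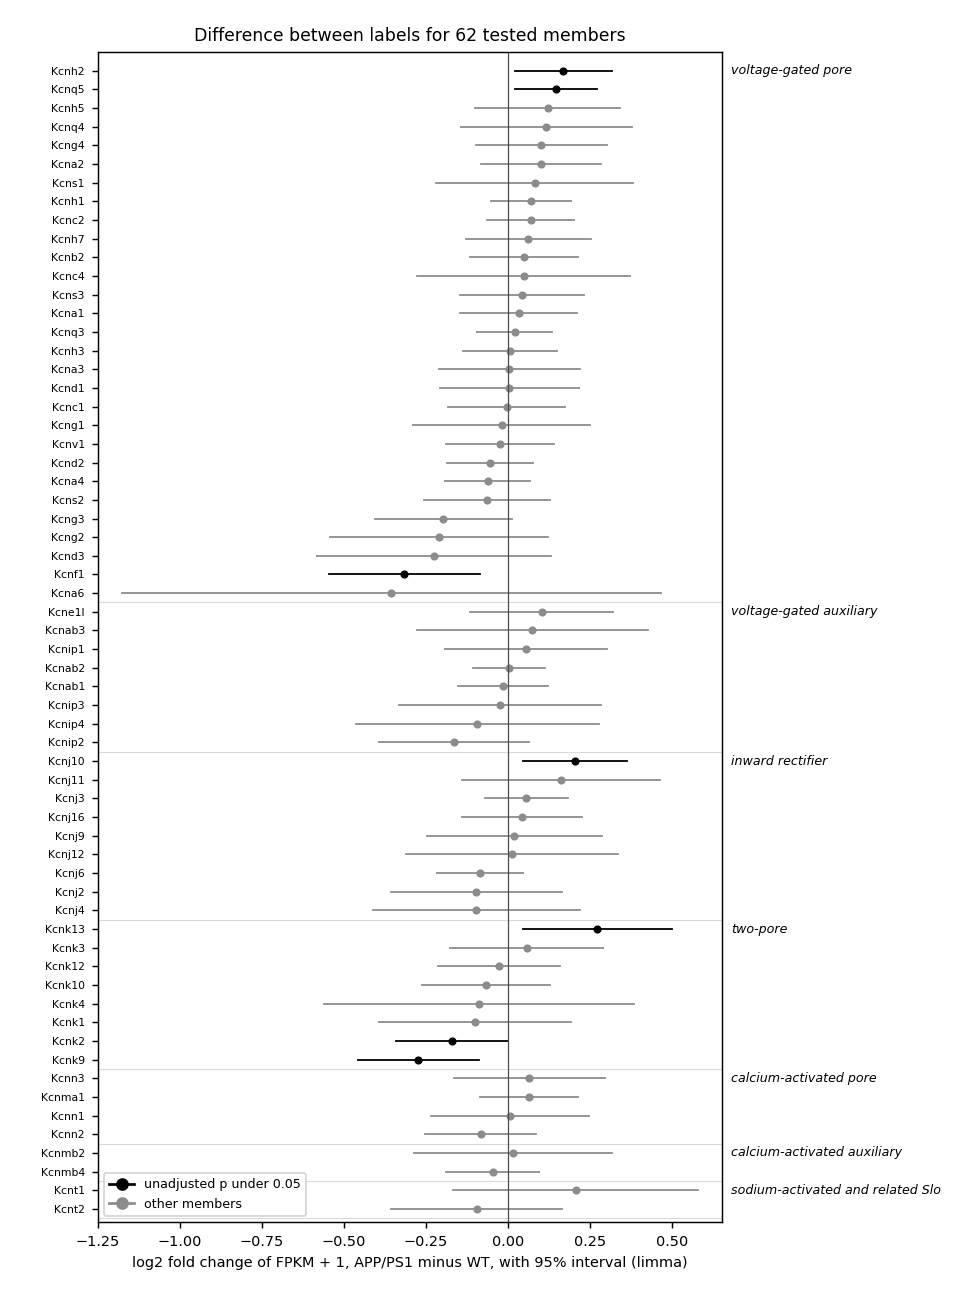
Log2 fold change of FPKM + 1, APP/PS1 minus WT, for 62 tested members by class, with 95% intervals from limma. Black marks an unadjusted p under 0.05, which no member kept below 0.05 after adjustment, and Kcna6 has the widest interval.

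Promoter sequence is shown for the member with the smallest p on each side that has an entry in the RefSeq promoter table (GRCm38.p6), and for Kcna6. Each run is the 250 bases before the start of the gene, 5′ to 3′ on the gene's strand, in lower case, with matches to any of 4 motifs on either strand in capitals. The GC box was searched for as GGGCGG. The TATA box was searched for as TATAAA. For the cAMP response element the letters were TGACGTCA, and for the E-box they were CACGTG. Kcnf1 lies at chr12:17176889-17177138 on the minus strand, Kcnj10 at chr1:172340960-172341209 on the plus strand and Kcna6 at chr6:126740675-126740924 on the minus strand.
Kcnf1: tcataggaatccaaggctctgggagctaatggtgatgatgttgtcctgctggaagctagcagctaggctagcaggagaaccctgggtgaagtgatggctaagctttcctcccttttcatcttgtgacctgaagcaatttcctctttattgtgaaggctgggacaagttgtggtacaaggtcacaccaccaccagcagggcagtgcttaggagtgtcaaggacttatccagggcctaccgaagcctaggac
Kcnj10: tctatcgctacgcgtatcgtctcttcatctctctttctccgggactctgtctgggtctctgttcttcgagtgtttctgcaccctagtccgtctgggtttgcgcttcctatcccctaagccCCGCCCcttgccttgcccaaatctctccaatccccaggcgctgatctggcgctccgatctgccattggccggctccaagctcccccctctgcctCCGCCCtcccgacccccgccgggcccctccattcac
Kcna6: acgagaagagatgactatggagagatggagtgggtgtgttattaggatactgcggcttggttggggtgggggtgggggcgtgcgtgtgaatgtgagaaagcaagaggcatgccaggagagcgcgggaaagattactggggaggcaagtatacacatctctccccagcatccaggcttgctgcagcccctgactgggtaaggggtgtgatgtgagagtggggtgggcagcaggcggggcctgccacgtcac
Kcnj10 held 2 GC boxes, both read on the other strand, and Kcnf1 and Kcna6 held none of the 4 motifs in this window. G and C made up 51.2% of the Kcnf1 run, 62.0% of the Kcnj10 run and 58.8% of the Kcna6 run.

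Of the 71 members 49 had an entry, with 72 starts between them. The GC box stood in 45.8% of these windows, against 32.7% of all 32851 windows in the table, and the TATA box in 2.78%, against 12.4%. The E-box stood in 6.94% of member windows, against 6.02% of all, and the cAMP response element in 0 of 72, against 1.55%. The median GC content was 61.6% over member genes and 52.0% over all genes. These shares describe the letters of the windows and were not tested.

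The voltage-gated pore with the smallest p was Kcnf1, a silent subunit that modifies other voltage-gated channels. It was listed at 8.99, 11.1 and 10.9 FPKM in APP/PS1-labelled libraries and at 13.6, 11.7 and 14.0 FPKM in WT-labelled libraries. All APP/PS1-labelled libraries lay below the WT-labelled ones, with replicate 1 lowest. The log2 fold change was -0.32 (SE 0.098, limma adjusted p = 0.642), and -0.32 in the 4 libraries (adjusted p = 0.535). Kcng3, another silent subunit, had 3.64, 4.16 and 3.71 FPKM in APP/PS1-labelled libraries and 4.26, 4.25 and 5.16 FPKM in WT-labelled libraries, a log2 fold change of -0.20 without overlap, which was -0.12 without WT replicate 3. Kcng2 had 5.29 ± 0.481 FPKM in APP/PS1-labelled and 6.36 ± 1.41 FPKM in WT-labelled libraries (SD, n = 3 each), and its log2 fold change of -0.21 was -0.077 without WT replicate 3 and -0.36 without WT replicate 2. Kcng1 and Kcng4, of the same family, had log2 fold changes of -0.02 and 0.10. All 9 silent subunits summed to 47.4 ± 1.61 FPKM in APP/PS1-labelled and 52.0 ± 3.46 FPKM in WT-labelled libraries, with the labels overlapping.

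Marker sums that separated the labels are given beside these values. The 9 dentate granule neuron markers summed to 67.8, 60.2 and 59.7 FPKM in APP/PS1-labelled and to 70.7, 73.7 and 83.3 FPKM in WT-labelled libraries, without overlap, and all 8 tested had a negative log2 fold change. The 14 immediate early genes, which follow neuronal activity, summed to 256.7, 341.0 and 209.1 FPKM in APP/PS1-labelled and to 546.1, 463.9 and 400.8 FPKM in WT-labelled libraries. All 14 log2 fold changes were negative, and 12 had an unadjusted p under 0.05 by limma, where 3.83% of all genes were lower at that threshold. Of the 14, 0 passed an adjusted p of 0.05. No marker of either list was at 0 in any library. Their part in the channel values was not tested.

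Kcnq5, a pore of the M-type current that restrains repetitive firing, was listed at 14.9, 15.4 and 14.1 FPKM in APP/PS1-labelled libraries and at 13.3, 13.4 and 13.0 FPKM in WT-labelled libraries. All APP/PS1-labelled libraries lay above the WT-labelled ones, and the log2 fold change was 0.15 (SE 0.053, limma adjusted p = 0.696), or 0.11 in the 4 libraries (adjusted p = 0.666), where its unadjusted p was no longer under 0.05. Kcnq3, its partner, had 22.9, 21.6 and 21.2 FPKM in APP/PS1-labelled and 21.5, 21.5 and 21.7 FPKM in WT-labelled libraries. The labels overlapped, and the log2 fold change of Kcnq3 was 0.02.

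Kcnh2, the ether-a-go-go related channel known from cardiac repolarisation, was listed at 6.20, 6.75 and 6.60 FPKM in APP/PS1-labelled libraries and at 5.69, 5.42 and 5.95 FPKM in WT-labelled libraries. The labels did not overlap, and the log2 fold change was 0.17 (SE 0.063, limma adjusted p = 0.705), or 0.17 in the 4 libraries (adjusted p = 0.577), where its unadjusted p was no longer under 0.05 either. Its relative Kcnh1 also stood above in all APP/PS1-labelled libraries, at 9.40, 9.51 and 9.95 FPKM against 9.04, 9.10 and 9.23 FPKM in WT-labelled libraries, a log2 fold change of 0.07 from the steadiest member of all. Kcnh3, Kcnh7 and Kcnh5, of the same family, had log2 fold changes of 0.01, 0.06 and 0.12 with overlapping labels. The A-type pore Kcnd3 had 3.10, 3.52 and 3.15 FPKM in APP/PS1-labelled and 5.36, 3.21 and 3.59 FPKM in WT-labelled libraries. Its log2 fold change of -0.23 became -0.05 without the high library, WT replicate 1.

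The auxiliary subunits gave 0 members with an unadjusted p under 0.05 among the 8 tested, where 6.69% of all genes had one. The smallest p was that of Kcnip2, which speeds the recovery of A-type channels, at 24.4, 29.2 and 22.8 FPKM in APP/PS1-labelled and 26.3, 29.4 and 30.0 FPKM in WT-labelled libraries. APP/PS1 replicate 2 lay inside the WT-labelled range, and the log2 fold change was -0.16 (SE 0.097), or -0.23 in the 4 libraries. Leaving out APP/PS1 replicate 3 gave -0.090, and leaving out replicate 2 of the same label gave -0.26. Next was Kcne1l, a single-pass beta subunit, at 1.38 ± 0.125 FPKM in APP/PS1-labelled and 1.22 ± 0.172 FPKM in WT-labelled libraries (SD, n = 3 each). Kcnab2 had a log2 fold change of 0.0025, with a 95% interval from -0.11 to 0.11.

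Kcnj10, whose promoter run held 2 GC boxes, was the 1 inward rectifier of 9 tested with an unadjusted p under 0.05. Over all genes tested 6.69% had one. Kcnj10 was listed at 34.6, 31.4 and 32.1 FPKM in APP/PS1-labelled libraries and at 30.6, 26.7 and 27.4 FPKM in WT-labelled libraries. All APP/PS1-labelled libraries lay above the WT-labelled ones, WT replicate 1 coming closest, and the log2 fold change was 0.20 (SE 0.067, limma adjusted p = 0.658), or 0.21 in the 4 libraries (adjusted p = 0.555), where its unadjusted p passed above 0.05. Kcnj16, which assembles with Kcnj10 in astrocytes, had 5.40, 5.42 and 6.00 FPKM in APP/PS1-labelled libraries and 4.89, 5.77 and 5.61 FPKM in WT-labelled libraries, and the labels overlapped. The 10 astrocyte markers, none of them at 0, summed to 576.1, 546.2 and 589.5 FPKM in APP/PS1-labelled and to 542.5, 582.6 and 583.5 FPKM in WT-labelled libraries. The 12 oligodendrocyte and myelin markers summed to 521.2, 470.7 and 562.5 FPKM in APP/PS1-labelled and to 438.1, 392.8 and 497.2 FPKM in WT-labelled libraries, with all 12 log2 fold changes positive. Of these 12, 6 had an unadjusted p under 0.05 by limma, all on the higher side, where 2.85% of all genes did. None passed an adjusted p of 0.05. Of the 10 astrocyte markers, 4 log2 fold changes were positive and 6 negative, and 0 had an unadjusted p under 0.05. Both marker sums overlapped between labels, and their part in the Kcnj10 values was not tested.

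The neuronal inward rectifiers did not separate by label. Kcnj6, a G protein-gated subunit, had 14.1, 15.0 and 13.8 FPKM in APP/PS1-labelled and 15.2, 14.7 and 15.8 FPKM in WT-labelled libraries, a log2 fold change of -0.08. Its relatives Kcnj3 and Kcnj9 were at 0.06 and 0.02 on the same scale, and the 3 subunits summed to 45.9 ± 0.956 FPKM in APP/PS1-labelled and 46.2 ± 2.17 FPKM in WT-labelled libraries (SD, n = 3 each). Kcnj4 was listed at 23.7, 21.4 and 23.2 FPKM in APP/PS1-labelled and at 30.4, 23.2 and 20.6 FPKM in WT-labelled libraries, so the WT-labelled libraries held both its highest and its lowest value.

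The two-pore class held 3 of the 7 members with an unadjusted p under 0.05, from 8 tested, where 6.69% of all genes had one. Kcnk9, an acid-sensitive leak channel of neurons, had the smallest p of all members and was listed at 10.04, 9.58 and 11.2 FPKM in APP/PS1-labelled libraries and at 12.8, 13.5 and 11.6 FPKM in WT-labelled libraries. The labels did not overlap, and the log2 fold change was -0.27 (SE 0.078, limma adjusted p = 0.615), or -0.29 in the 4 libraries (adjusted p = 0.453). Kcnk2, a leak channel opened by stretch and lipids, was listed at 6.46, 6.35 and 5.50 FPKM in APP/PS1-labelled libraries and at 6.98, 6.73 and 7.25 FPKM in WT-labelled libraries. Its labels did not overlap either, with a log2 fold change of -0.17 (SE 0.073, limma adjusted p = 0.741). Its unadjusted p lay just under the threshold and above it in the 4 libraries, where the log2 fold change was -0.17 (adjusted p = 0.649), and the 7 other limma settings called 2 lower members in place of 3.

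Kcnk13, a halothane-inhibited channel known as the main resting potassium channel of microglia, went the other way. It was listed at 2.33, 2.08 and 2.26 FPKM in APP/PS1-labelled libraries and at 1.80, 1.36 and 1.88 FPKM in WT-labelled libraries. Every APP/PS1-labelled library lay above every WT-labelled one, and the log2 fold change was 0.27 (SE 0.097, limma adjusted p = 0.695), or 0.36 in the 4 libraries (adjusted p = 0.509). The 9 microglia markers, none of them at 0, summed to 107.4, 97.8 and 96.2 FPKM in APP/PS1-labelled and to 96.8, 98.2 and 102.1 FPKM in WT-labelled libraries, and their part was not tested. Kcnk12, its closest relative, had 5.45 ± 0.432 FPKM in APP/PS1-labelled and 5.57 ± 0.410 FPKM in WT-labelled libraries. Kcnk1 was listed at 25.0, 19.0 and 17.2 FPKM in APP/PS1-labelled libraries, against 21.2, 21.7 and 22.0 FPKM in WT-labelled libraries, so the APP/PS1-labelled libraries lay on both sides.

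**Figure D4:**
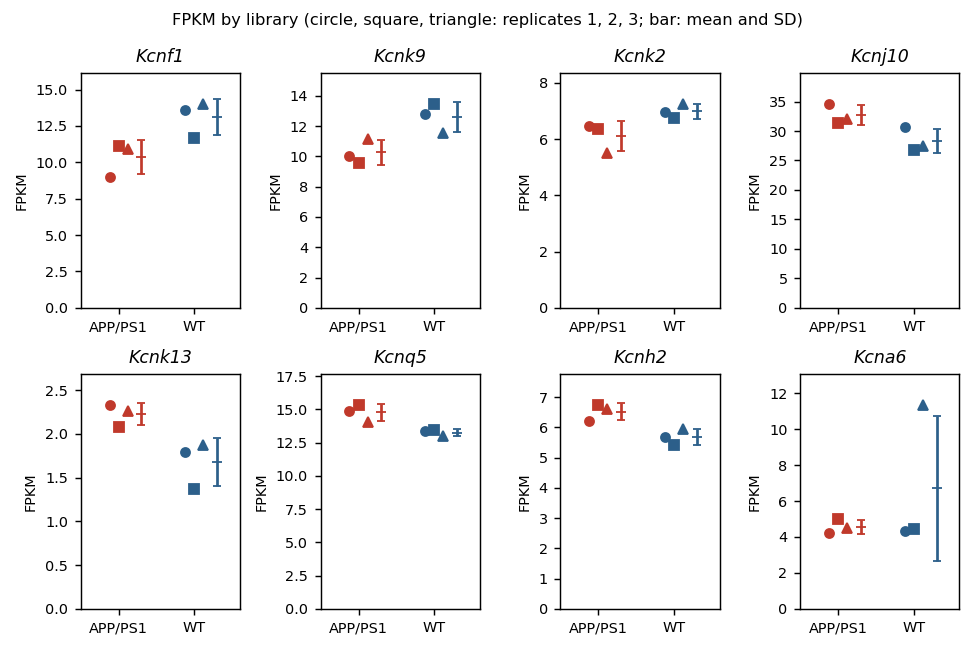
FPKM by library for the 7 members with an unadjusted p under 0.05 and for Kcna6, from 0 upwards, with replicates 1, 2 and 3 as circle, square and triangle and the mean and SD of each label beside them. In the 7 members the labels do not overlap; in Kcna6 WT replicate 3 stands at 11.4 FPKM.

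Calcium-activated and sodium-activated channels gave 0 members with an unadjusted p under 0.05 among the 8 tested, auxiliary subunits included. Over all genes tested the share was 6.69%, so 0 among 8 genes is no mark of these classes. Kcnma1 was listed at 25.7, 24.8 and 26.9 FPKM in APP/PS1-labelled and at 25.0, 26.1 and 22.8 FPKM in WT-labelled libraries, a log2 fold change of 0.06 with a 95% interval from -0.086 to 0.21. Its beta subunit Kcnmb4 had 8.93 ± 0.484 FPKM in APP/PS1-labelled and 9.25 ± 0.302 FPKM in WT-labelled libraries, and Kcnmb2 had 1.32 ± 0.353 FPKM in APP/PS1-labelled and 1.29 ± 0.211 FPKM in WT-labelled libraries (SD, n = 3 each). Kcnn2, a small-conductance channel of the afterhyperpolarisation, had 8.33, 9.004 and 8.67 FPKM in APP/PS1-labelled and 10.2, 8.83 and 8.74 FPKM in WT-labelled libraries, a log2 fold change of -0.08 that was -0.018 without WT replicate 1. Kcnt1 had 4.42, 5.21 and 6.18 FPKM in APP/PS1-labelled and 4.98, 5.07 and 3.34 FPKM in WT-labelled libraries. Its log2 fold change of 0.21 became 0.05 in the 4 libraries.

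Separation of the labels was then counted over all members tested. In 10 of 65, or 15.4%, the APP/PS1-labelled and WT-labelled libraries did not overlap, 5 above and 5 below, where 11.9% of all genes did not overlap, 5.38% above and 6.51% below. Besides the 7 named first these included Kcnh1, above, and Kcng3, below. The typical spread between libraries of 1 label, the median SD of log2(FPKM + 1), was 0.109 for the members and 0.101 for all genes tested. In the 4 libraries whose App and Prnp follow the labels, 1 member was higher and 5 were lower at an unadjusted p under 0.05, where 9.13% of all genes were called, 4.23% higher and 4.9% lower. By limma 0 members passed an adjusted p of 0.05 there, where 0.172% of all genes did, 0.0674% higher and 0.105% lower. Of the 7 members named first 3 kept an unadjusted p under 0.05, Kcnk9, Kcnk13 and Kcnf1, and 4 did not. The higher one was Kcnk13, and Kcnk9, Kcnf1 and Kcnip2 were among the lower ones.

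The library in which each member was lowest was then counted. Of the 65 members tested, 23, or 35.4%, were lowest in WT replicate 3, where 16.8% of all genes were, and no other library was the lowest for more than 10 members. Of the 32 voltage-gated pores 12 were lowest there, among them Kcna1, Kcna2, Kcnc1, Kcnc4 and Kcnh7. Kcnc1 and Kcnc4, of the same family, had 18.8 and 13.1 FPKM in WT replicate 3, below the 22.3 and 18.02 FPKM of WT replicate 1. Kcnf1, Kcng2, Kcng3, Kcnip2 and Kcnk2 were instead highest in WT replicate 3, and 10 members, or 15.4%, were highest there in all, where 22.6% of all genes were. WT replicate 3 also goes against its label by App and Prnp. It had the highest dentate and thalamus marker sums, at 83.3 and 44.7 FPKM. Its pyramidal and choroid plexus marker sums were the lowest, at 186.4 and 983.9 FPKM. The part of these in the count was not tested. WT replicate 3 was singled out once its values were known, and the count was not tested.

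**Figure D5:**
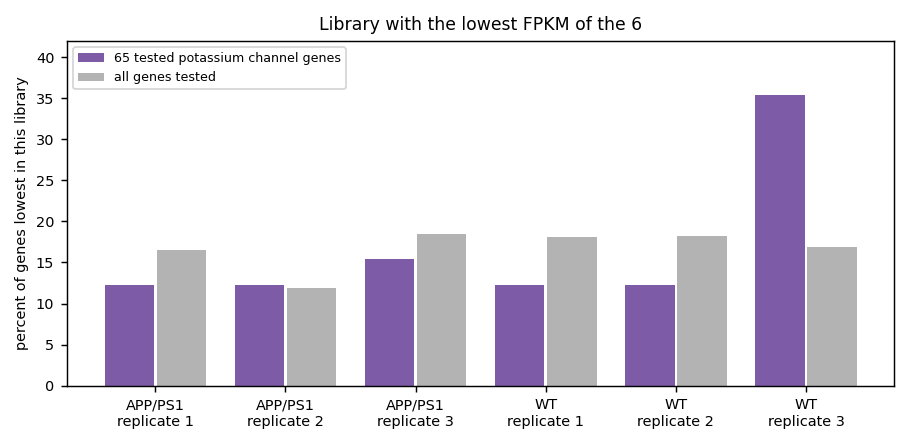
Percent of genes whose lowest FPKM of the 6 libraries falls in each library, for the 65 tested members in purple and all 13700 tested genes in grey. WT replicate 3 holds 35.4% of the members and 16.8% of all genes.

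Kcna6, a low-threshold pore related to Kcna1 whose promoter run held none of the 4 motifs, was the least steady member. It was listed at 4.21, 5.003 and 4.48 FPKM in APP/PS1-labelled libraries and at 4.35, 4.42 and 11.4 FPKM in WT-labelled libraries, so WT replicate 3 stood 2.27-fold above the next library. Of the 13700 genes tested, 24, or 0.175%, had 1 library at least 2-fold above every other, and Kcna6 was the 1 potassium channel among them. Its neighbours on the chromosome did not share this: Kcna1 had 31.0 FPKM and Ndufa9, of mitochondrial complex I, 24.5 FPKM in WT replicate 3, against 35.3 and 24.5 FPKM in WT replicate 1. Among the other genes with such a library were 6 of the clustered protocadherin gamma genes. Kcna6 was picked out after its values were seen, and its log2 fold change of -0.36 had a 95% interval from -1.18 to 0.47.

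Partners of potassium channels outside the Kcn names were taken from a list of 26 genes, of which 23 were listed and tested and Lrrc26, Lrrc38 and Lrrc52 were not listed. By limma 0 of the 23 passed an adjusted p of 0.05, where 0.0219% of all genes did. An unadjusted p under 0.05 was reached by 1, or 4.35%, on the higher side, where 6.69% of all genes reached one, 2.85% on the higher side. The median log2 fold change was 0.05, against -0.00089 over all genes, and 17 were positive (73.9%) and 6 negative, where 49.6% of all genes were positive. That 1 gene was Dpp10, which encodes a single-pass partner of Kcnd channels, with 5.27, 4.596 and 5.20 FPKM in APP/PS1-labelled libraries and 4.34, 4.34 and 4.31 FPKM in WT-labelled libraries. The labels did not overlap, and the log2 fold change was 0.17 (SE 0.069, limma adjusted p = 0.731). Dpp6, its relative, had 27.0 ± 1.42 FPKM in APP/PS1-labelled and 28.2 ± 0.693 FPKM in WT-labelled libraries (SD, n = 3 each).

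The next partners by p did not pass either. Cntnap2, which clusters Kcna channels beside the node of Ranvier, had 16.5, 17.3 and 12.1 FPKM in APP/PS1-labelled and 11.9, 12.1 and 12.6 FPKM in WT-labelled libraries, a log2 fold change of 0.29, or 0.44 without APP/PS1 replicate 3. APP/PS1 replicates 1 and 2 were high and replicate 3 lay inside the WT-labelled range. Vapb, an endoplasmic reticulum protein that binds a potassium channel, had 17.4 ± 0.459 FPKM in APP/PS1-labelled and 16.3 ± 0.385 FPKM in WT-labelled libraries. Abcc8 and Abcc9, the regulatory subunits of ATP-sensitive channels, had 3.60 ± 0.544 and 1.20 ± 0.124 FPKM in APP/PS1-labelled libraries and 4.07 ± 0.567 and 1.09 ± 0.0861 FPKM in WT-labelled libraries.

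Circular RNAs gave another readout of the same genes. Of 2246 circular RNAs listed as whole-number reads, 257 had coordinates, 254 of which (98.8%) lay inside a gene of the GRCm38 RefSeq table although the processing notes list mm9, and 2 lay inside a potassium channel gene, both in Kcnt2. The other 1989 have a database number alone and could not be assigned. The circle at chr1:140362948-140484233, coordinates as the file gives them, had 2, 2 and 5 reads in APP/PS1-labelled and 2, 5 and 2 reads in WT-labelled libraries. It was tested with edgeR among 2132 circular RNAs and did not pass (log2 fold change -0.16, adjusted p = 0.955), where 0.0469% of circular RNAs did. The circle at chr1:140362948-140431433 shares its start and had 11, 0 and 0 reads in APP/PS1-labelled and 0, 2 and 0 reads in WT-labelled libraries, so 11 of its 13 reads came from APP/PS1 replicate 1, and it was not tested. The linear Kcnt2 values were 7.41, 6.60 and 7.37 FPKM in APP/PS1-labelled and 6.50, 7.62 and 9.10 FPKM in WT-labelled libraries.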

How the data were processed

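Gene values are FPKM deposited by the authors. No file header names the unit, which was taken from decimals, from column sums and from StringTie. Per the submitters' processing notes the tools were StringTie, HISAT2 and FastQC and the build was mm9. The circular RNA values deposited by the authors are whole-number read counts, between 13998 and 19584 per library, and no source used here names their caller. Per the labels, RNA was taken up in Trizol and built into TruSeq libraries. Whether reads were counted by strand is not given, so a gene and an antisense partner cannot be told apart.

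The 13700 genes that reached 1 FPKM in 3 or more libraries were fitted by label with limma 3.58.1 (R 4.3.3, trend and robust) on log2(FPKM + 1). The 2132 circular RNAs that reached 2 reads in 3 or more libraries were fitted with edgeR 4.0.16 (TMM, robust quasi-likelihood). Both fits were run on simulated data with known changes. Changes as small as those of the members were not simulated, so the power to detect them is unknown. Adjustment was by Benjamini-Hochberg. Ratios of low FPKM values between libraries showed no steps of whole reads. Members and lists were chosen with earlier results of these data known. Members are named by level (4 highest pores, 3 highest in other classes) and by p (6 and 2 smallest), and others were named after their values were seen. Alternatives were other pseudocounts, filters, scalings and limma settings, DESeq2 1.42.0 for circular RNAs, a replicate block, and libraries left out. Some genes that this rule names are not reported here and are not drawn one by one, but they stay in fits, sums and counts.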

Additional observations from a re-analysis of the deposited data

How the results depend on the processing

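No alternative brought a potassium channel gene past an adjusted p of 0.05 by limma, so that count was 0 higher and 0 lower in all of them. The count of members with an unadjusted p under 0.05 was 4 higher and 3 lower with all libraries. Leaving out 1 library at a time gave between 1 and 3 higher and between 2 and 4 lower. It was 1 without WT replicate 2 or APP/PS1 replicate 1 and 2 without WT replicate 1 or APP/PS1 replicate 3 on the higher side. In the 4 libraries without WT replicate 3 and APP/PS1 replicate 2 it was 1 higher and 5 lower. With the replicate number as a block it was 3 higher and 2 lower, and no adjusted call changed. Same-numbered libraries had deviations correlated at 0.0098, -0.056 and -0.094, so the numbers were not taken to pair them. For every class sum the ratio of label means stayed within 1 SD of its value with all libraries. That SD was taken from the same libraries, so leaving out 1 of them could hardly move a ratio beyond it. The result is therefore no measure of steadiness. The 7 other settings of limma gave 4 higher and 2 lower. With 1 library left out at a time, the uncalled log2 fold change of the Kcnt2 circle ran from -0.69 to 0.34, against -0.16 with all libraries, that of Kcnmb2 from -0.11 to 0.089, against 0.015, and that of the Kcnt2 gene from -0.20 to 0.014, against -0.096. The Kcnt2 gene stood at 0.061 in the 4 libraries. Of 330 refits of 22 named genes, 325 kept sign and call, and these of Kcnmb2 and Kcnt2 were the 5 that did not. The call meant here is an adjusted p under 0.05 by limma. No named gene had one in any refit, the smallest being 0.152 for Cntnap2. Keeping the call is therefore no measure of steadiness. By unadjusted p, Kcnj10, Kcnh2 and Kcnq5 passed above 0.05 in the 4 libraries, while Kcnk9, Kcnk13 and Kcnf1 did not. The causes were not tested. The number of reads behind low members such as Kcne4 is unknown.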
